A study of Mus musculus with 2 samples.

Results

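Potassium channel subunits were read as the 168 probe sets, for 83 genes, whose single deposited symbol begins with Kcn, out of 37579 single-gene probe sets for 20660 genes. Kcnj1 was left out by the rule that chose them, and 3 probe sets that name a Kcn gene together with a second symbol were not used. The choice rests on names alone and on no intensity. It also takes in Kcnq1ot1, a long non-coding RNA transcribed antisense within the channel gene Kcnq1, which encodes no channel subunit.

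RNA came from kidneys of mice at postnatal day 3, an age at which mouse nephrons are still forming. One group was wild type, with no strain named, and the other was the B6C3Fe a/a-bpck mutant, a strain that the series title links to polycystic kidney disease. No agent is named for either group, and the labels give neither the mutated gene nor the sex or number of animals. Each group was 1 Affymetrix Mouse 430 2.0 array, so there was no replicate, no test was possible, and every difference is between 2 arrays.

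Potassium channels let potassium leave cells and so set the membrane voltage. In the kidney, basolateral channels recycle potassium that the sodium pump brings in and hold the voltage that drives salt transport. Apical channels secrete potassium into the urine. The family is built from pore-forming subunits (voltage-gated, inward rectifier, tandem-pore, and calcium- or sodium-activated) and from auxiliary subunits that change how the pores open or reach the membrane.

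Among the members bright enough to compare, Kcne1l, an auxiliary subunit that damps Kcnq1 channels and is also known as Kcne5, stood farthest apart and was 2.59-fold higher in the mutant array. Kcnq1, a voltage-gated pore of epithelia and heart, was 1.55-fold higher. On the lower side in the mutant array stood Kcnq1ot1 (1.61-fold), Kcnj5 (1.51-fold) and Kcnh3 (1.51-fold). All 3 pore genes of the rapidly inactivating Kcnd subfamily were lower as well, by 1.21-fold to 1.39-fold. Of all 13146 genes bright enough to compare, 6828 were lower too, and this subfamily was not a group of the rule that named genes. Kcnj10, Kcnj15 and Kcnj16, inward rectifiers of the tubule, lay 1.01-fold to 1.08-fold apart on their brightest probe sets.

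The promoter windows of 4 of these genes are shown because their transcripts stood apart or, for the pair Kcnd2 and Kcnd3, differed in the same direction. Each window runs from 250 bases before to 50 bases after the gene start, from RefSeq on build GRCm38.p6, 5′ to 3′ on the gene's strand, with every CG dinucleotide in capitals. Of the 83 genes, 60 had a window in that table.
Kcne1l: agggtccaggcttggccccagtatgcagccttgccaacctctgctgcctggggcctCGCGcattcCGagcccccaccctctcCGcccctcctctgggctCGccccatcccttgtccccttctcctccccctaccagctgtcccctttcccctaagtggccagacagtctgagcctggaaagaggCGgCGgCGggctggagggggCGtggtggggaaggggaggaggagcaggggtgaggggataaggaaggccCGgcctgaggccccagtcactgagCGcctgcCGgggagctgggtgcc
Kcnq1ot1: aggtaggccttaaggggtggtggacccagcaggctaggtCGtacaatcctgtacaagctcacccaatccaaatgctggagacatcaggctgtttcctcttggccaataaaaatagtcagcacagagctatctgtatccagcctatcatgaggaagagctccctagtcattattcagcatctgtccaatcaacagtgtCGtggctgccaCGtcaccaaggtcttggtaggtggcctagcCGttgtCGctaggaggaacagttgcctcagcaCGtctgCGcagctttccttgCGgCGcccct
Kcnd2: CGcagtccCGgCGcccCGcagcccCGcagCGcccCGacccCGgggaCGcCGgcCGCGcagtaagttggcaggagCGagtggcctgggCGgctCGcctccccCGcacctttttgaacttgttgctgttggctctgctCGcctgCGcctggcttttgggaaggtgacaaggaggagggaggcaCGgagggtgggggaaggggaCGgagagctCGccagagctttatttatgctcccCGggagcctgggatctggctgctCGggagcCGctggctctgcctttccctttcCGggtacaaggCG
Kcnd3: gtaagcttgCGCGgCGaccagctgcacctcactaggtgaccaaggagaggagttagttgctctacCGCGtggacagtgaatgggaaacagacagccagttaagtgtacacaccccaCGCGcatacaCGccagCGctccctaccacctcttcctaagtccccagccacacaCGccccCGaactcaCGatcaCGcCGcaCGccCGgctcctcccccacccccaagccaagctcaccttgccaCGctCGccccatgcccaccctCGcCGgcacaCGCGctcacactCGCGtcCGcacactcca
The Kcne1l window lies at chrX:142306149-142306448 on the minus strand and that of Kcnq1ot1 at chr7:143296498-143296797 on the minus strand. The Kcnd2 window lies at chr6:21215096-21215395 and that of Kcnd3 at chr3:105451640-105451939, both on the plus strand. CG occurred 26 times in the Kcnd2 window and 25 times in the Kcnd3 window, against a median of 7 over 32851 windows. At least as many were in 16.87% and 18.43% of all windows. The Kcne1l window held 12 and that of Kcnq1ot1 held 9, with at least as many in 39.59% and 45.78% of all windows. TATAAA, searched on both strands, was in none of the 4 windows and is in 13.62% of all windows. CCAAT, searched on both strands, was in the Kcnq1ot1 window alone among the 4 and is in 37.41% of all windows. CACGTG was in none of the 4 and is in 7.15% of all. The arrays measured transcripts and hold no readout of these windows.

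Values are the authors' dChip expression index, a linear intensity. Intensities depend on the probes, so the levels of different genes are not ranked. Before log2 was taken, anything dimmer than 4.2 (the 20th percentile of intensity) was raised to 4.2. A gene counted as above the filter where at least 1 array read 16.53, the overall median intensity, or more, and its brightest probe set stood for it. Summed intensities were 5173132 for wild type and 5175900 for mutant, with medians of 16.97 and 16.13. Kidney markers were bright in both arrays, with Umod of the thick ascending limb at 1981 and 1877 and Lrp2 of the proximal tubule at 948 and 1148. The arrays also differed in sex-linked RNA. Xist, the RNA of the inactive X chromosome, read 4.67 in wild type and 1113 in mutant, and the 4 Y-linked genes were 4.38-fold to 4.93-fold lower in mutant. Sex-linked expression and genotype cannot be told apart here. In whole kidney, fewer cells of a type and less RNA per cell cannot be told apart either.

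Most potassium channel genes were dim in this tissue. Above the filter stood 37 of the 83 genes, or 44.6%, against 63.6% of all 20660 genes, and 9 of 83 (10.8%) reached the 75th percentile of intensity (83.51), against 37.7% of all genes. Of the 46 genes below the filter, 13 were under 4.2 in every probe set and both arrays. By 1.5-fold or more, 2 of the 37 genes (5.41%) were higher in mutant, against 2.02% of the 13146 genes above the filter, and 3 of 37 (8.11%) were lower, against 2.58% of all. Kcnj5 and Kcnh3 lay just past that step, and Kcnt2 (1.49-fold) and Kcnn1 (1.47-fold) just short of it. With array medians set equal, or after quantile scaling, 2 were higher and 1, Kcnq1ot1, was lower, while the split over all genes went from 265 higher and 339 lower to 392 and 238, or 336 and 260. Within 1.2-fold lay 21 of the 37 (56.8%), against 78.9% of all genes above the filter. Their median log2 difference, mutant minus wild type, was -0.09, against -0.01 over all genes above the filter.

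**Figure D1:**
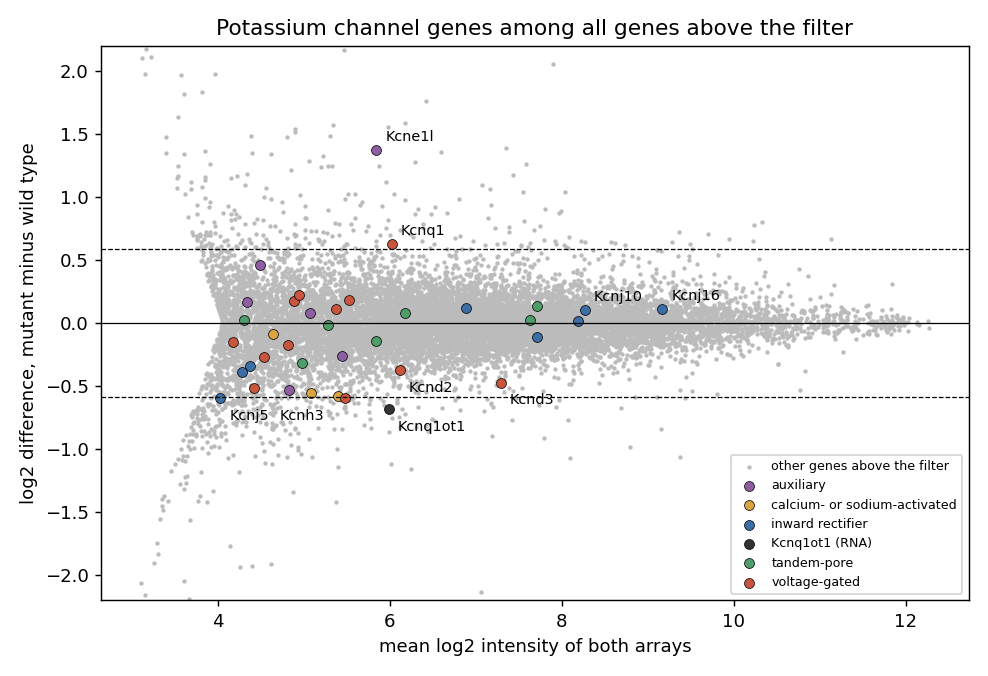
Log2 difference between the arrays (mutant minus wild type) against mean log2 intensity, for genes above the filter, with potassium channel genes coloured by family and dashed lines at 1.5-fold. Kcne1l lies highest among them at 1.37, while Kcnj10 and Kcnj16 lie near 0, and 14 genes beyond 2.2 in size are not drawn.

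At the smaller step of 1.2-fold, the potassium channel genes were unevenly divided. By 1.2-fold or more, 13 of 37 (35.1%) were lower in mutant, against 11.2% of all genes above the filter, and 3 of 37 (8.11%) were higher, against 9.87% of all. Dim genes differ more between arrays than bright ones, and 28 of the 37 lay between the filter and the 75th percentile. In that dim band 12 of 28 (42.9%) were at least 1.2-fold lower, against 20.1% of the 5360 genes there, and 2 of 28 (7.14%) at least 1.2-fold higher, against 14.6%. With array medians set equal, or after quantile scaling, 11 of the 37 (29.7%) were at least 1.2-fold lower and 4 higher, while over all genes 7.39% or 9.54% were lower and 15.5% or 11.7% higher. The 13 lower genes were Kcnq1ot1, Kcnj5, Kcnh3, Kcnt2, Kcnn1, Kcnab1, Kcna5, Kcnd1, Kcnd2, Kcnd3, Kcnj12, Kcnj13 and Kcnk6, and the 3 higher ones Kcne1l, Kcnq1 and Kcne3.

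**Figure D2:**
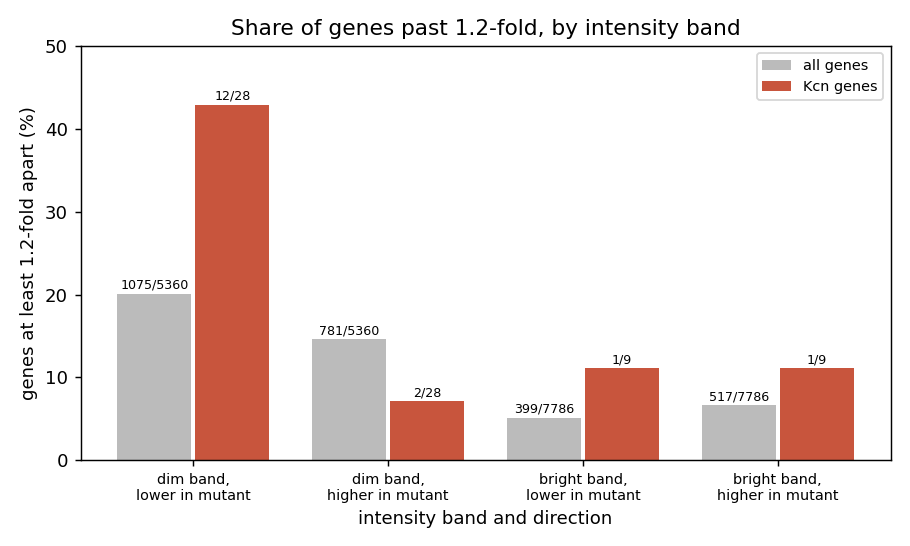
Percentage of genes at least 1.2-fold apart, by direction, in the dim band (from the filter to the 75th percentile of intensity) and the bright band (at or above it), for all genes (grey) and potassium channel genes (red), with counts above the bars. In the dim band 12 of 28 potassium channel genes were lower in mutant and 2 higher.

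Among voltage-gated pores, which open when the membrane depolarises, 12 of 34 genes passed the filter, of which 5 were higher and 7 lower in the mutant array. Their median log2 difference was -0.16, and -0.09 or -0.10 with the arrays rescaled. Kcnq1 had 1 probe set, 1449464_at, which read 52.1 in wild type and 80.7 in mutant. The mutant value was the higher one by 0.63 on the log2 scale, and 2.76% of genes in the dim band were as far higher. In the authors' deposited table its fold was 1.55 with bounds of 1.45 and 1.66.

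The Kcnd genes encode the pores of A-type currents, which switch on and off quickly in heart and neurons. Kcnd3 read 184 in wild type and 133 in mutant on its only probe set above the filter, 1.39-fold lower. In the bright band, 1.01% of genes were as far lower as Kcnd3. Kcnd2 had 3 probe sets above the filter, at 79.0 and 61.0, 34.9 and 20.2, and 24.6 and 15.7 in wild type and mutant. All 3 were lower in mutant, by log2 differences of -0.37, -0.79 and -0.65, so that the dimmer probe sets gave the larger difference. Kcnd1 read 25.4 and 21.1, 1.21-fold lower, and lies on the X chromosome. In the dim band, 12.9% of genes were as far lower as Kcnd2 on its brightest probe set, and 19.4% as far lower as Kcnd1. The direction of all 3 genes was the same with array medians set equal and after quantile scaling. Their further probe sets lay under the filter in both arrays and were divided.

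**Figure D3:**
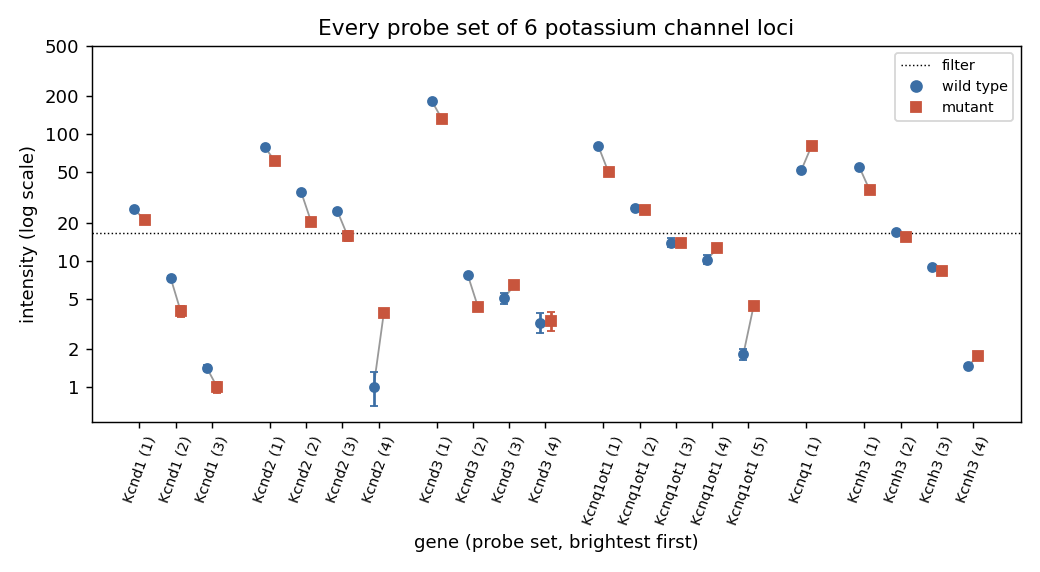
Intensity (log scale) of every probe set of Kcnd1, Kcnd2, Kcnd3, Kcnq1ot1, Kcnq1 and Kcnh3 in the wild-type (circle) and mutant (square) array, brightest probe set first, with the authors' model standard error as bars and the filter dotted. All probe sets of the Kcnd genes above the filter slope down, while those of Kcnq1ot1 above it lie 1.61-fold and 1.04-fold apart.

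Of the listed auxiliary proteins of the Kcnd pores, only Kcnip1 passed the filter. Kcnip1, a calcium-binding subunit, read 32.8 and 34.6 on its brightest probe set and 17.2 and 20.4 on the other above the filter. Kcnip2, Kcnip3 and Kcnip4 lay below it, as did Dpp6 (9.47 and 15.3) and Dpp10 (4.41 and 8.0), the membrane partners of these channels.

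Kcnh3, a slow voltage-gated channel known mainly from the forebrain, read 54.8 in wild type and 36.3 in mutant on its brightest probe set. Its other probe set above the filter read 16.8 and 15.4, so the 1.51-fold difference rests on 1 of 2. Kcna5, a delayed rectifier of vascular muscle, read 25.5 and 17.8, 1.43-fold lower. Kcnc2, a channel of fast-spiking neurons, read 27.7 and 31.3, 1.13-fold higher.

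Probe sets went against each other in Kcns3, a silent subunit that modifies other voltage-gated channels. It read 40.03 and 43.2 on 1 probe set and 21.3 and 13.98 on the other. Kcnq5, a pore of the neuronal M-current, read 19.1 and 17.2. Over all genes with at least 2 probe sets above the filter, the SD between probe sets of the log2 difference had a median of 0.13 (5269 genes), and over the 10 such potassium channel genes it was 0.17. In 7 of those 10 the probe sets shared a direction, as in 51.6% of the 5269.

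**Figure D4:**
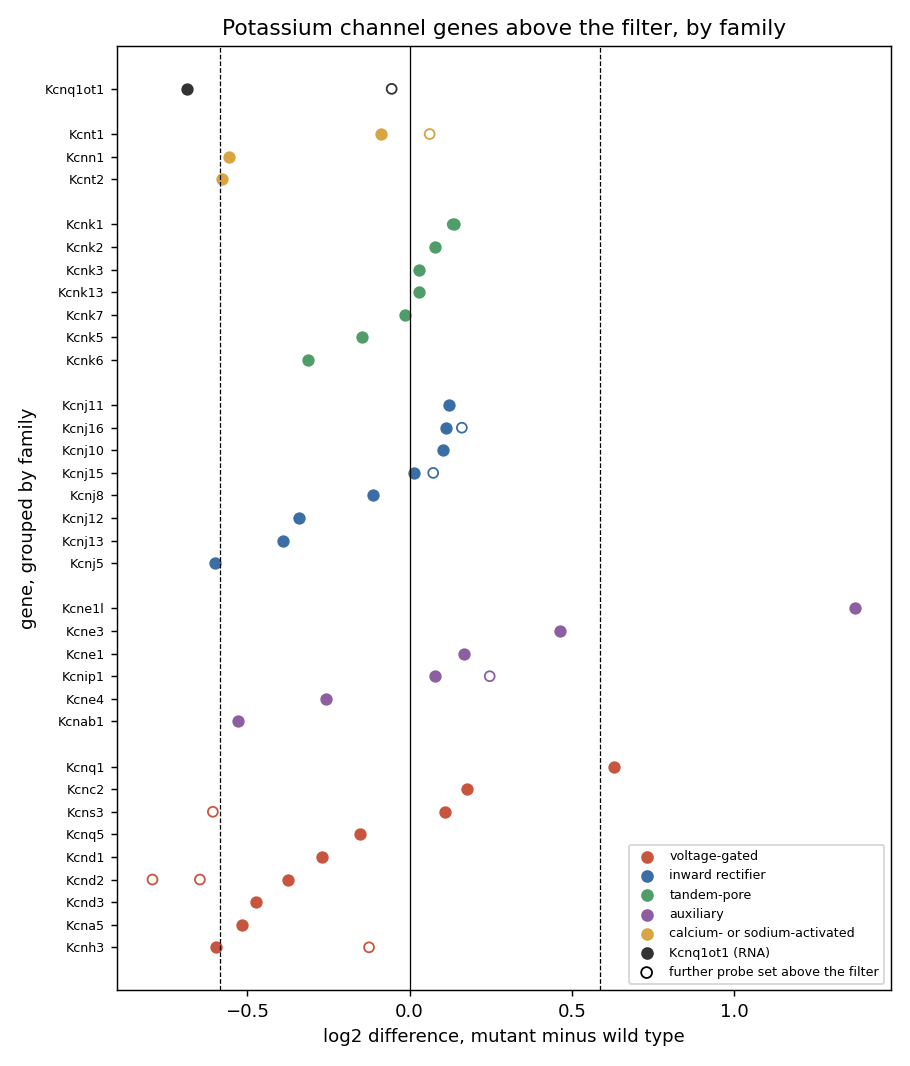
Log2 difference (mutant minus wild type) of genes above the filter, grouped by family, with the brightest probe set filled, further probe sets above the filter open, and dashed lines at 1.5-fold. The filled points run from -0.68 for Kcnq1ot1 to 1.37 for Kcne1l, and the filled and open points of Kcns3 lie on opposite sides of 0.

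Of the auxiliary genes, 6 of 14 passed the filter, 4 higher and 2 lower in the mutant array, as also under both rescalings. The Kcne genes encode single-span membrane proteins that assemble with Kcnq1 and other voltage-gated pores. Kcne1l, on probe set 1416640_at, read 35.7 in wild type and 92.4 in mutant, with the authors' model standard errors at 1.71 and 0.66. Its log2 difference was 1.37, and 0.205% of all genes above the filter were as far higher. In the authors' deposited table its fold was 2.59 with bounds of 2.40 and 2.81. Those errors come from the probes of 1 array each and hold no variation between animals.

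Kcne1l lies on the X chromosome, and the arrays differed in Xist. Among the 422 X-linked genes above the filter, 1.90% were at least 1.5-fold higher in mutant and 1.42% at least 1.5-fold lower, with a median log2 difference of -0.02. The only other X-linked member above the filter, Kcnd1, was lower. The part of sex in the Kcne1l difference was not tested.

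Kcne3, which holds Kcnq1 channels open in epithelia, read 19.2 and 26.4, 1.38-fold higher in mutant. Kcne1, the subunit that slows Kcnq1 opening and is known from mouse proximal tubule, read 19.1 and 21.4 on its brightest probe set and 13.8 and 16.2 on its other. Kcne4, an inhibitor of Kcnq1 currents, was the exception with 47.7 and 39.9, lower by a log2 difference of -0.26. Kcne2, which partners Kcnq1 in gastric parietal cells, was under 4.2 in both arrays. Kcnq1 and 3 of its 4 Kcne partners above the filter were higher in the mutant array, against 48.0% of all genes above the filter. In the dim band, 23.0% of genes were as far higher as Kcne1. The grouping of Kcnq1 with Kcne genes was made with the values in view. Proximal tubule markers lay the same way, with 5 of 6 higher in mutant and summed levels of 4393 in wild type and 5223 in mutant, none of them at the lowest deposited value of 1. Their part in the Kcnq1 and Kcne values was not tested.

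Kcnab1, a cytoplasmic beta subunit that speeds inactivation of Kcna channels, read 34.1 and 23.6, 1.44-fold lower. Its relatives Kcnab2 (13.3 and 6.27) and Kcnab3 (15.7 and 9.21) stayed below the filter. The BK channel beta subunits Kcnmb1 (14.1 and 14.8) and Kcnmb2 were below it as well.

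Kcnq1ot1 is expressed from the paternal chromosome, where it silences neighbouring genes in cis, and its promoter window, printed above, lies in an imprinting control region. On its brightest probe set, 1442029_at, the intensity was 80.3 in wild type and 49.95 in mutant, with a log2 difference of -0.68. On the second above the filter it read 26.1 and 25.2, and the 3 dimmer probe sets read 13.9 and 13.8, 10.1 and 12.6, and 1.82 and 4.34. The lower level in mutant therefore rests on 1 of 5 probe sets, and the mean over the 2 above the filter was -0.37. Of the genes it silences, 3 read after the values of Kcnq1ot1 were seen were divided. Cdkn1c, a cell cycle inhibitor strong in podocytes, was 1.25-fold lower in mutant (1633 and 1305), whereas Phlda2 was 1.27-fold higher (54.3 and 69.2) and Slc22a18 1.21-fold higher (71.2 and 86.3). Podocyte markers were lower for 6 of 6, with summed levels of 1639 and 1196. Their part in the Cdkn1c value was not tested.

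Inward rectifiers, which pass potassium most easily into the cell and hold the resting voltage, had 8 of 14 genes above the filter, 4 higher and 4 lower. Their median log2 difference was -0.05 and turned to 0.02 with array medians set equal. Kcnj10 and Kcnj16 encode the pore subunits that together form the basolateral channel of the distal convoluted tubule. Kcnj10 read 298 and 319, 1.07-fold higher in mutant. Kcnj16 read 553 and 598 on its brightest probe set and 297 and 333 on its other, 1.08-fold and 1.12-fold higher. Markers of the distal convoluted tubule went the other way, with 4 of 5 lower in mutant and summed levels of 3111 and 2607. Most of those sums came from 1 marker, Calb1, at 2085 and 1599, while Kl was higher in mutant. The part of these markers in the Kcnj10 and Kcnj16 values was not tested. Kcnj15, a basolateral channel of the proximal tubule, read 291 and 293 on its brightest probe set and 57.9 and 60.9 on the next. These were 1.01-fold and 1.05-fold higher in mutant.

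Kcnj8 and Kcnj11 are the pores of ATP-sensitive potassium channels, which couple membrane voltage to metabolism. Kcnj8, the form of vascular muscle and pericytes, read 218 and 201, 1.08-fold lower in mutant. Abcc9, the sulfonylurea receptor that pairs with it, read 261 and 217, a log2 difference of -0.26. Kcnj11 read 114 and 124, 1.09-fold higher, and Abcc8, the receptor of the pancreatic form, was below the filter at 10.3 and 10.7. Smooth muscle and pericyte markers were higher for 6 of 8, with summed levels of 4408 and 5112, none of them at 1, while Kcna5 and Kcnj8 were lower.

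The 3 inward rectifiers above the filter that are not yet described were lower in mutant. Kcnj5, a G protein-activated channel that also sets the voltage of aldosterone-making adrenal cells, read 20.1 and 13.3, which is 1.51-fold lower and close to the filter, so that Kcnj5 alone of the 37 genes reached the filter in wild type only. Its other probe set was under 4.2 in both arrays. Of the adrenal cortex markers 7 of 8 read lower in mutant, most of them dim, with summed levels of 308 and 58.6 and no marker at 1. Hsd3b1, a steroid dehydrogenase gene, read 205 and 2.77, while Cyp11a1, the gene of the first enzyme of steroid synthesis, read 5.69 and 9.7. Their part in the Kcnj5 value was not tested. Kcnk3, a channel of the same adrenal cells, read 19.6 and 20. Kcnj13, a channel of transporting epithelia, was 1.31-fold lower (22.3 and 17.0), and Kcnj12, a strong rectifier of muscle, 1.27-fold lower (23.3 and 18.4).

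Tandem-pore channels, which carry the background leak of potassium, had 7 of 12 genes above the filter, with log2 differences from -0.31 to 0.14. Within 1.2-fold lay 6 of the 7, near the 78.9% of all genes. As deposited 4 of them were higher and 3 lower, and under both rescalings 5 were higher and 2 lower. Kcnk1, a weakly rectifying leak channel of kidney epithelia, read 200 and 220 on its brightest probe set and 86.3 and 94.7 on its other, both 1.10-fold higher. Kcnk5, an alkali-activated channel of the proximal tubule, read 60.2 and 54.5, 1.11-fold lower. Kcnk2, a channel that opens on membrane stretch, read 70.2 and 74.1.

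Kcnk6 was the leak channel gene farthest apart, 1.24-fold lower in mutant (35.1 and 28.2). Kcnk7, a subunit with no known current of its own, read 39.0 and 38.7. Kcnk13, an arachidonic acid-activated channel, read 197 and 201 on a probe set of the cross-hybridising type (suffix _x_at) but 3.69 and 5.53 on its other, so its level is uncertain.

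Of the calcium- or sodium-activated genes, 3 of 8 passed the filter and all 3 were lower in the mutant array, under both rescalings too. Over all genes above the filter, 6828 of 13146 were lower as deposited. Kcnt2, a sodium-activated channel of neurons, read 51.3 and 34.4, 1.49-fold lower. Kcnn1, a small-conductance calcium-activated channel of neurons, read 41.0 and 27.9 on its brightest probe set, 1.47-fold lower. Its other, below the filter, read 13.4 and 12.7. Kcnt1, the closest relative of Kcnt2, read 25.8 and 24.3, with its second probe set at 16.6 and 17.4. The 3 probe sets of Kcnma1, the pore of the BK channel that secretes potassium at high tubular flow, all read 6.60 or less. Kcnn4, the intermediate-conductance channel of red cells, lymphocytes and epithelia, read 14.3 and 14.6, below the filter.

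Several of the lower genes, among them Kcnh3, Kcnn1, Kcnt2 and Kcnd2, are known mainly from neurons, and neural markers differed between the arrays. All 8 chromaffin markers read lower in mutant, with summed levels of 578 and 200.4 and 1 of the 8 at 1 in the mutant array. Of the neuron and Schwann cell markers, 3 of 10 passed the filter, 1 higher and 2 lower, with summed levels of 149.5 and 115 and Snap25 and Prph at 1 in the mutant array. Stmn2, a growth-associated neuronal gene, was 2.05-fold lower (44.9 and 21.9), whereas Syt1, a synaptic vesicle protein gene, read 25.6 and 27.8. The part of nerve or adrenal medulla RNA in the potassium channel values was not tested.

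**Figure D5:**
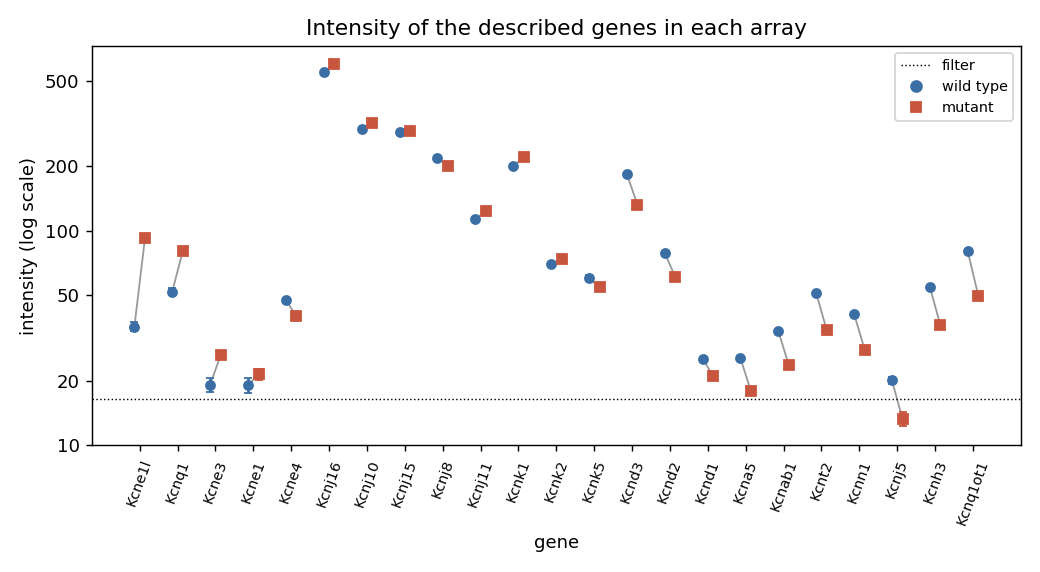
Intensity (log scale) in the wild-type (circle) and mutant (square) array for 23 described genes, each on its brightest probe set, with the authors' model standard error as bars and the filter dotted. Kcne1l and Kcnq1 slope up most steeply, Kcnq1ot1, Kcnh3 and Kcnj5 slope down most steeply, and the bright inward rectifiers are nearly level.

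The 46 genes below the filter have no fold given here. On their brightest probe sets 25 read lower in mutant, 20 higher and 1 the same. Among voltage-gated genes 22 of 34 were below it. Kcna1 (12.1 and 4.94), Kcna7 (12.2 and 4.11) and Kcnc1 (11.0 and 3.19) read lower in mutant, and Kcnv1 (1.41 and 10.5) read higher on its brightest probe set but lower on its other 2. Others were Kcna2, Kcna3, Kcna4, Kcna6, Kcnc4, Kcnf1, Kcng1, Kcng2, Kcng4, Kcnh1, Kcnh5, Kcnh7, Kcnh8, Kcnq3, Kcns1, Kcns2 and Kcnv2. Among inward rectifiers they were Kcnj2, Kcnj3, Kcnj4, Kcnj6, Kcnj9 and Kcnj14, and among tandem-pore genes Kcnk4, Kcnk10, Kcnk12, Kcnk15 and Kcnk16. Kcnn2, Kcnn3 and Kcnu1 completed them. A low intensity does not show that a gene is silent, since probe sets differ in brightness.

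The authors' file header names its own criterion, a lower bound of the fold above 1.5 and an intensity difference above 20, although the listed probe sets are not limited to it. Applied to the authors' deposited table, it was met by 2 of the 168 probe sets, those of Kcne1l and of Kcnq1ot1 (1442029_at), against 0.568% of all 45037 probe sets.

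Transporters and regulators that work with these channels were mostly close between the arrays. Of 44 listed partner genes, 34 passed the filter, 18 higher and 16 lower in the mutant array, with a median log2 difference of 0.01. The sodium pump beta subunit Atp1b1 read 2004 and 1936, within 1.04-fold. Atp12a, the non-gastric proton-potassium pump that reclaims potassium in the collecting duct, was 1.55-fold higher (158 and 246). Among partners above the filter it was the only one at least 1.5-fold higher in mutant. Slc12a3, the sodium-chloride cotransporter of the distal convoluted tubule, was the only one of those at least 1.5-fold lower (307 and 194). Nedd4l, a ubiquitin ligase that removes epithelial channels from the membrane, was 1.29-fold higher (187 and 240.4), and Sgk1, the aldosterone-induced kinase that restrains it, 1.18-fold higher (567 and 667).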

How the data were processed

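Kidney RNA, 1 sample per genotype, was labelled with biotin from 100 ng and read on Affymetrix Mouse 430 2.0 arrays, per the labels. The authors computed the deposited intensity, the expression index of each probe set, in dChip (version of December 2010), per the series' design text. Per the file headers they left out control probe sets and averaged with standard errors, and they deposited a signed fold, treated here as a score, with bounds whose level is not stated. How background was subtracted and arrays were scaled is not given in the sources used here. The intensities of both deposited files were equal in all 45037 probe sets.

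Intensities were used as deposited. Symbols were taken from the deposited annotation and looked up by gene ID in a RefSeq table (GRCm38.p6), which held all 168 probe sets. The arrays name no genome build, so positions are given only for the RefSeq promoter windows. Kcna10, Kcnb2, Kcnh2 and Kcnk9 were not analysed here. Differences are mutant minus wild type on the log2 scale, with no test, since each group had 1 array, and the number of arrays limits the precision. The count rule and both rescalings were tested on simulated data. Calculations used Python 3.11.15, numpy 2.4.6, pandas 2.3.3 and scipy 1.17.1.

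The members and gene lists were chosen with earlier results of these data known. Named by rule were genes at least 1.5-fold apart, the 10 brightest, and a list of kidney, vascular, adrenal and neuronal channel genes, whatever their values. Other members were named to account for them, apart from some that are not reported here by name. The imprinted neighbours of Kcnq1ot1 and the grouping of Kcnq1 with Kcne genes were chosen after values were seen. The Kcnd subfamily was not a group of the naming rule either. Besides the lists described in the results, markers of endothelium (2 of 6 higher), thick ascending limb (2 of 4), principal cells (4 of 6), intercalated cells (0 of 5), macrophages (3 of 4), T cells (0 of 1) and erythroid cells (1 of 2) were read above the filter. Alternatives were other scalings, floors, filters, thresholds, a pseudocount of 32, other choices of probe sets and the values of the second file.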

Additional observations from a re-analysis of the deposited data

How the results depend on the processing

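With 2 genes at least 1.5-fold higher and 3 lower as reported, the counts depended on filter and threshold. Without a filter, 83 genes gave 4 higher (4.82%) and 11 lower (13.3%), against 4.78% and 5.90% of all genes. At the 75th percentile, 9 genes gave 1 higher (11.1%) and 0 lower, against 1.05% and 0.604% of the 7786 genes there. The 1 higher gene, Kcne1l, reached that cut in the mutant array only. The median log2 difference of the 9 genes was 0.10, against -0.002 over all genes there. A pseudocount of 32 gave 1 higher and 0 lower of 37, against 71 and 33 of the 13146 genes above the filter. A 2-fold threshold gave 1 higher (2.7%) and 0 lower, against 0.525% and 0.517% of all. At 1.2-fold, 13 (35.1%) were lower, against 11.2% of all. Array medians set equal and quantile scaling each gave 1 lower, against 238 and 260 lower over all genes. Each probe set on its own gave 3 higher and 7 lower of 49 (6.12% and 14.3%), against 2.2% and 3.29% of all. The filter setting changed which genes entered, and the threshold changed how many of the same 37 were called. For the other settings the cause was not tested. Other floors and the second file left the values of the 22 named genes as they were. The other 4 alternatives gave 73 other values, of which 72 kept their direction and 1 turned, with the mean of a gene's probe sets in place of the brightest, and 11 moved by over 0.13, the median SD between probe sets. No paired analysis was possible because each group held 1 array. Signal over background limits the dim genes, where a difference of a few intensity units passes 1.2-fold.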
